A study of Mus musculus with 10 samples.

Results

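Cells that had kept high Sca1 after 3 days in erythropoietin were compared with cells that had kept high Sca1 after 3 days in interleukin-3 and all-trans retinoic acid. The comparison rests on 1 array a side, EPO Sca1-high minus IL-3/RA Sca1-high. A gene was taken when its log2 processed signal, relative to the 75th percentile of its own array, differed at least 2-fold and its spot was well above background on the brighter side. By this rule 2222 of 14097 compared genes were taken, 958 higher (6.8% of the compared genes) and 1264 lower (8.97%) in EPO Sca1-high. With 1 array a side no test was possible, so every value here is a description of these arrays.

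EML-C1 is a mouse blood progenitor line that was made by expressing a dominant-negative retinoic acid receptor alpha, which all groups therefore share. EPO Sca1-high and EPO Sca1-low cells had 10 ng/ml erythropoietin (EPO) for 3 days. IL-3/RA Sca1-high and IL-3/RA Sca1-low cells had 10 ng/ml interleukin-3 and 10 µM all-trans retinoic acid; their labels name GM-CSF too, but per the labels' protocols 10 ng/ml of it was added only after day 3. A combined treatment held the EPO and the IL-3/RA agents, day 6 cells were labelled with no Sca1 fraction, and untreated progenitors were taken at day 0. All cultures contained horse serum and BHK/MKL conditioned medium, which supplies stem cell factor, and RNA came from sorted populations of 1 line.

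EPO acts through its receptor and JAK2 and STAT5 on committed erythroid progenitors. IL-3 acts through an alpha subunit and a shared beta subunit, also on JAK2 and STAT5, and retinoic acid acts on nuclear receptors that drive the later steps of neutrophil maturation. Sca1, the product of Ly6a, marks early progenitors in mice and falls as they commit. The cells compared here are those with high Sca1 in each culture, which need not be the least mature ones. In IL-3/RA cells the progenitor gene Cd34 had a level of 6.65 in Sca1-high and 0.44 in Sca1-low. The late neutrophil gene S100a9 was also higher in Sca1-high, with 6.13 against 1.11.

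The arrays of all 4 EPO and IL-3/RA day 3 samples lay on the same slide and scan, and the untreated, combined and day 6 arrays lay on 2 other slides. The 75th percentile of signal was 616 for EPO Sca1-high and 621 for IL-3/RA Sca1-high. Repeat spots of 399 probes had a median SD of 0.12 log2 on both arrays, which gives a difference a spot error of 0.17. That error covers spots on an array and not the spread between cultures, which could not be measured. Of the compared genes, 12970 were well above background in EPO Sca1-high and 13796 in IL-3/RA Sca1-high. The extraction software graded the EPO Sca1-high array as one to evaluate and the IL-3/RA Sca1-high array as in range.

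The sort can be checked on Ly6a itself. Its level, in log2 signal relative to the array's 75th percentile, was 4.76 in EPO Sca1-high and 2.64 in IL-3/RA Sca1-high. Sca1-low cells had -4.24 after EPO and -3.43 after IL-3/RA, and untreated cells had 3.01. Both Sca1-high arrays thus lay far above both Sca1-low arrays, and EPO Sca1-high lay 2.12 log2 above IL-3/RA Sca1-high. Cd34, a surface sialomucin of progenitors, had 6.59 in EPO Sca1-high and 6.65 in IL-3/RA Sca1-high, against -2.63 and 0.44 in the 2 Sca1-low fractions.

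The 2 fractions were alike for most genes: 11875 genes (84.2%) lay within 2-fold, and the median difference over all 14097 was 0.01 log2. The far end of the lower genes held neutrophil maturation genes, with the macrophage gene Adgre1, the chemokine gene Ccl6 and Gimap5 among them. Mast cell and erythroid genes stood among the higher ones. At the threshold, 4932412D23Rik was just inside with a difference of 1.00038 and Trib3 with -1.00097, while Serpinf1 at 0.999825 and Tpgs2 at -0.998053 were just outside. For 281 higher and 580 lower genes the dimmer spot was not well above background, so their difference is given as a bound. It is set against the lowest signal that was well above background on the dim array, or the dim spot's own signal if brighter. In IL-3/RA Sca1-high that lowest signal was -6.08, from a probe of Rag1, and the next lowest was -5.19. In EPO Sca1-high they were -5.10, also Rag1, and -5.03. Some brighter spots were still not well above background, so the bound is not a strict minimum. After that bound, 360 genes were at least 4-fold higher and 434 at least 4-fold lower, and 45 and 107 reached 16-fold. Background correction by normexp with quantile normalization left 522 higher and 702 lower genes, and requiring both arrays to be well above background left 677 higher and 684 lower ones.

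**Figure D1:**
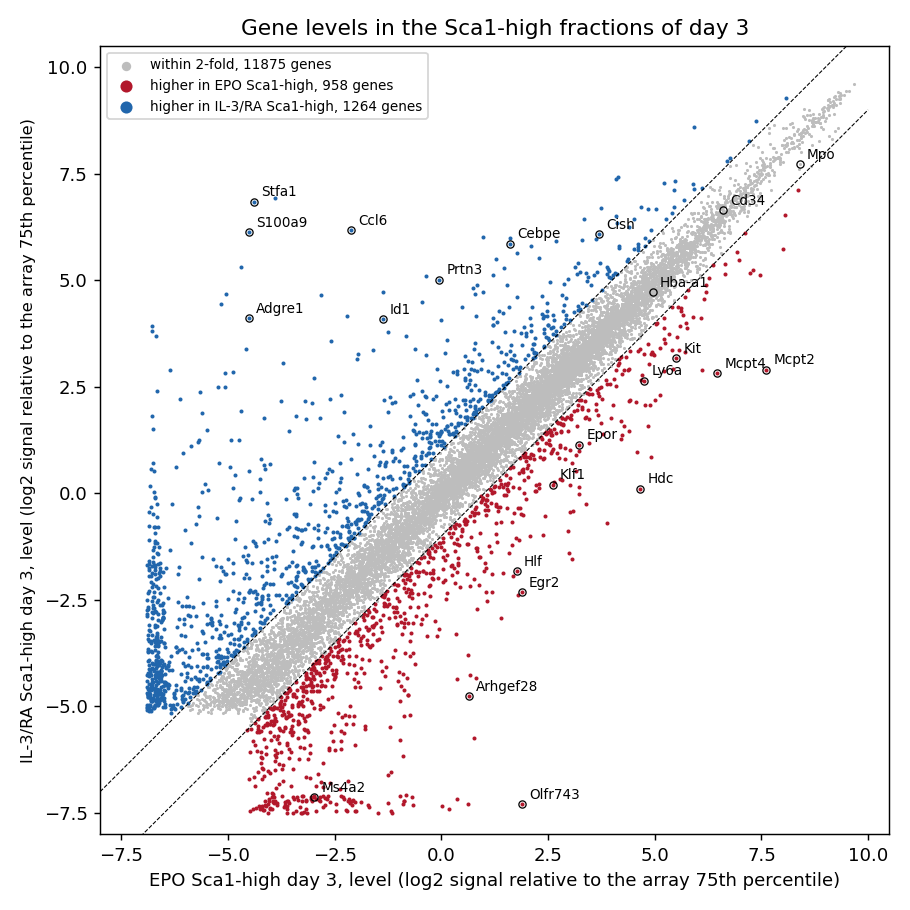
Level of each compared gene in EPO Sca1-high (horizontal axis) and IL-3/RA Sca1-high (vertical axis), both in log2 signal relative to the array's 75th percentile, 1 array each. Red points are the 958 genes at least 2-fold higher in EPO Sca1-high, blue points the 1264 at least 2-fold lower, grey points lie within 2-fold, dashed lines mark 2-fold, and Stfa1 lies farthest above the lines.

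The receptors were present on both sides, in different proportion. Epor, the EPO receptor, had a level of 3.23 in EPO Sca1-high and 1.14 in IL-3/RA Sca1-high, a difference of 2.09, with 3.02 in untreated cells. Csf2rb, the beta subunit shared by the IL-3, GM-CSF and IL-5 receptors, had 6.93 in EPO Sca1-high and 5.66 in IL-3/RA Sca1-high. Csf2rb2, the mouse beta subunit used by IL-3 alone, had 7.31 and 5.25 in the same order, so both beta subunits were lower in the cells that had received IL-3. Their untreated levels of 6.50 and 6.56 were nearer to the EPO side. The alpha subunits went the other way: Csf2ra, of the GM-CSF receptor, had 2.92 in EPO Sca1-high and 4.19 in IL-3/RA Sca1-high, and Il3ra had 2.72 and 3.52, within 2-fold. Csf3r, the G-CSF receptor, had 6.40 on both arrays. Il6ra, the IL-6 receptor, had 2.96 in EPO Sca1-high and -0.89 in IL-3/RA Sca1-high.

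Cish, Pim1 and Socs2, feedback genes downstream of STAT5, were above untreated on both arrays and lower in EPO Sca1-high than in IL-3/RA Sca1-high. Cish, a cytokine-induced inhibitor of STAT5 signalling, had a level of 3.70 in EPO Sca1-high and 6.08 in IL-3/RA Sca1-high, against -0.13 in untreated cells. Pim1, a STAT5-induced survival kinase, had -0.10 in EPO Sca1-high and 2.91 in IL-3/RA Sca1-high, and Socs2, another feedback inhibitor, had 0.13 and 1.57. Untreated cells had -1.66 for Pim1 and -1.26 for Socs2. In the list of STAT5 targets and cytokine feedback genes, 2 of 18 genes above background were at least 2-fold higher and 5 lower, with a median difference of -0.50. Bcl6, a repressor whose transcription STAT5 lowers, was among the higher ones, with 1.01 in EPO Sca1-high and -1.83 in IL-3/RA Sca1-high. The genes of the EPO receptor and JAK2 pathway gave 1 higher and 3 lower of 17, and those of the IL-3 and GM-CSF receptor pathway 2 higher and 4 lower of 12. The shares over all compared genes, here and for every list, were 6.8% higher and 8.97% lower. Stat5a, at 4.62 and 3.73, and Jak2, at 2.40 and 2.96, were within 2-fold.

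Retinoic acid was in the medium of 1 side only. Of 29 genes on the retinoic acid list 18 were above background, with 3 higher and 2 lower and a median difference of -0.29, against 6.8% higher and 8.97% lower of all compared genes. Dhrs3, a retinaldehyde reductase that retinoic acid induces, had a level of 3.64 in EPO Sca1-high and 5.20 in IL-3/RA Sca1-high. Tgm2, transglutaminase 2, had -2.46 and 0.02, and its probes gave differences between -7.20 and -2.48. Dhrs9, a retinol dehydrogenase, was on the other side, with -2.02 in EPO Sca1-high and -4.54 in IL-3/RA Sca1-high. Rara, the receptor that the line was built on, had 2.96 and 3.43, and its 2 probes disagreed in sign, from -0.47 to 0.37. Rarb, a classical target, was not well above background on any of the 10 arrays. Among receptors and cofactors, 1 of 11 was higher, Rxra with -1.99 in EPO Sca1-high and -3.23 in IL-3/RA Sca1-high, and 2 were lower, the coactivator Ncoa3 (1.57 and 3.01) and Rxrg (2.68 and 3.81).

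Myeloid transcription factors differed gene by gene. Cebpe, the C/EBP factor required for secondary granules, had a level of 1.61 in EPO Sca1-high and 5.85 in IL-3/RA Sca1-high, with 1.03 in untreated cells, a difference of -4.24. Cebpb, the factor of demand-driven granulopoiesis, had 1.20 and 5.13. Gfi1, a repressor needed for neutrophil formation, had 0.94 and 3.14. Cebpa, which starts the granulocyte programme, had -2.24 in EPO Sca1-high and -1.23 in IL-3/RA Sca1-high, close to the threshold, and Spi1, which encodes PU.1, had -0.95 and 0.01, within 2-fold. Id1, an inhibitor of basic helix-loop-helix factors, differed most in this list, with -1.38 in EPO Sca1-high, 4.08 in IL-3/RA Sca1-high and -3.62 in untreated cells.

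Immediate early genes of the Egr family were on the other side. Egr1 had 6.12 in EPO Sca1-high and 2.91 in IL-3/RA Sca1-high, and Egr2 had 1.88 and -2.32. Untreated cells had 4.07 for Egr1 and -1.55 for Egr2, so both genes were above untreated after EPO and below it after IL-3/RA. Over the whole list of myeloid regulators and receptors, 5 of 20 genes were higher and 8 lower, with a median difference of -0.73.

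Late neutrophil genes were nearly all lower in EPO Sca1-high. Of 25 listed genes 19 were above background, and 17 of these were at least 2-fold lower and 0 higher, with a median difference of -4.13, or -3.50 with genes at their bound, against 0.01 over all genes. Stfa1, a stefin A inhibitor of cysteine proteases, had -4.40 in EPO Sca1-high and 6.84 in IL-3/RA Sca1-high, against -6.99 in untreated cells, a 2421-fold difference. S100a9, a calcium-binding protein that fills the neutrophil cytosol, had -4.52 and 6.13. Its partner S100a8 was at 3.92 in IL-3/RA Sca1-high and not well above background after EPO, a bounded difference of 516-fold. Granule proteins showed the same order. Ltf, lactoferrin of secondary granules, had -0.73 in EPO Sca1-high and 2.29 in IL-3/RA Sca1-high. Lcn2, the iron-siderophore binder lipocalin-2, had -2.28 and 1.22. Mmp9, the gelatinase of tertiary granules, was 1.48 in IL-3/RA Sca1-high and not well above background after EPO, with a bounded difference of -6.58. The remaining genes of the list were Chil3 (-1.13 and -0.84) and Fpr1 (-2.64 and -3.49), both within 2-fold.

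The lowest genes of all included further stefins. The stefin genes Cstdc5, Csta2 and Stfa2l1 had differences of -10.82, -9.74 and -8.79, the last pair as bounds. Near-identical stefin copies can share probes, so their separate values are uncertain. All 12 lowest genes were well above background on 5 to 8 of the 10 arrays. C/EBP factors bind sites built on TTGC, and 3 promoters of late neutrophil genes that hold the motif TTGCNNAA in the 250 bases before the start are shown for the motif's place, in lower case with the match on either strand in capitals. The sequences are from RefSeq on GRCm38.p6, with S100a9 at chr3:90695722-90695971 on the minus strand, Stfa1 at chr16:36276898-36277147 on the plus strand and Ltf at chr9:111019042-111019291 on the plus strand, each read 5′ to 3′ towards its gene.
S100a9: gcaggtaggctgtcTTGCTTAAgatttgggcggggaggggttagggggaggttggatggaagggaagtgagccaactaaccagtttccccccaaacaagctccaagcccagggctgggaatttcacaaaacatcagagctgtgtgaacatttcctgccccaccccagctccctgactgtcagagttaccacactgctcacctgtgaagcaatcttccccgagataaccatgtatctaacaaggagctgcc
Stfa1: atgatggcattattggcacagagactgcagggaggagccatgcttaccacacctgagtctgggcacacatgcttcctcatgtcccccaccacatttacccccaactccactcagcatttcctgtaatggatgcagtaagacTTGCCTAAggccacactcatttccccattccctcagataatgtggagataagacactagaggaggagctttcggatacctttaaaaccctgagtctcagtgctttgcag
Ltf: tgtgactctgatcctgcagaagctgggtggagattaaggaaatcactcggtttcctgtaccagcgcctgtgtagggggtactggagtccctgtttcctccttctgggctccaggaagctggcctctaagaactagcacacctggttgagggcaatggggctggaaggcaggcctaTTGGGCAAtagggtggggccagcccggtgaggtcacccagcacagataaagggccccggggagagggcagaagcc
TTGCNNAA stood in 7 of 18 late neutrophil promoters with a sequence, in 12.4% of those of the lower genes and in 9.69% of all 11282 promoters searched. It also stood in 6 of 15 mast cell and basophil promoters with a sequence, and the higher genes had it in 12.9%, close to the share of the lower ones. GAGGAAGT, a form of the PU.1 site searched on both strands, stood in 3.12% of the promoters of higher genes and in 6.07% of those of lower genes, against 3.05% of all.

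Primary granule genes did not move as a block. Of 13 above background, 3 were higher and 8 lower, with a median difference of -2.99, or -1.69 with genes at their bound. Mpo, myeloperoxidase, had 8.40 in EPO Sca1-high and 7.72 in IL-3/RA Sca1-high, and Ctsg, cathepsin G, had 8.68 and 8.18, both within 2-fold and both near their untreated levels of 8.24 and 8.09. Elane, neutrophil elastase, was higher in EPO Sca1-high, with 2.80 against 1.43. Prtn3, proteinase 3, had -0.06 in EPO Sca1-high and 5.01 in IL-3/RA Sca1-high. Ms4a3, a granulocyte and monocyte progenitor gene, had 0.75 and 4.81, and Lyz1, a lysozyme, had 0.48 and 4.38. Untreated cells had -0.85 for Prtn3, 0.36 for Ms4a3 and 0.93 for Lyz1, each nearer to EPO Sca1-high.

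Monocyte and macrophage genes were split as well, with 3 of 22 higher, 8 lower and a median difference of -0.48. Adgre1, the F4/80 antigen of macrophages, had a bounded difference of -8.62 with 4.11 in IL-3/RA Sca1-high. Itgax, the CD11c integrin, had -0.02 in EPO Sca1-high and 4.06 in IL-3/RA Sca1-high, and Mpeg1, a pore-forming protein of phagocytes, had -4.24 and 0.82. Itgam, the CD11b integrin shared by neutrophils and monocytes, had 5.13 and 5.79 and was within 2-fold. F13a1, coagulation factor XIII of monocytes and platelets, was on the other side, with 1.82 in EPO Sca1-high and -1.10 in IL-3/RA Sca1-high. Tlr2, a Toll-like receptor of phagocytes, was not well above background on either array.

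Chemokines and cytokines were sorted by gene, 10 higher and 8 lower of 23. Chemokines lower in EPO Sca1-high included Ccl6, Ccl9, Ccl5 and Ppbp, and chemokines higher there included Ccl17 and Pf4. Ccl6 had -2.12 there and 6.18 in IL-3/RA Sca1-high, Ccl9 had 4.09 and 7.37, and Ccl5 had -2.59 and 3.58. The cytokines Il4, Il6, Il10 and Il13 were higher in EPO Sca1-high, while the cytokine Il1b was lower. Il6 had 4.77 in EPO Sca1-high and 2.07 in IL-3/RA Sca1-high, and Il13 had -1.02 and -4.40. Tbxas1, thromboxane synthase, had -1.36 in EPO Sca1-high and 4.72 in IL-3/RA Sca1-high.

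**Figure D2:**
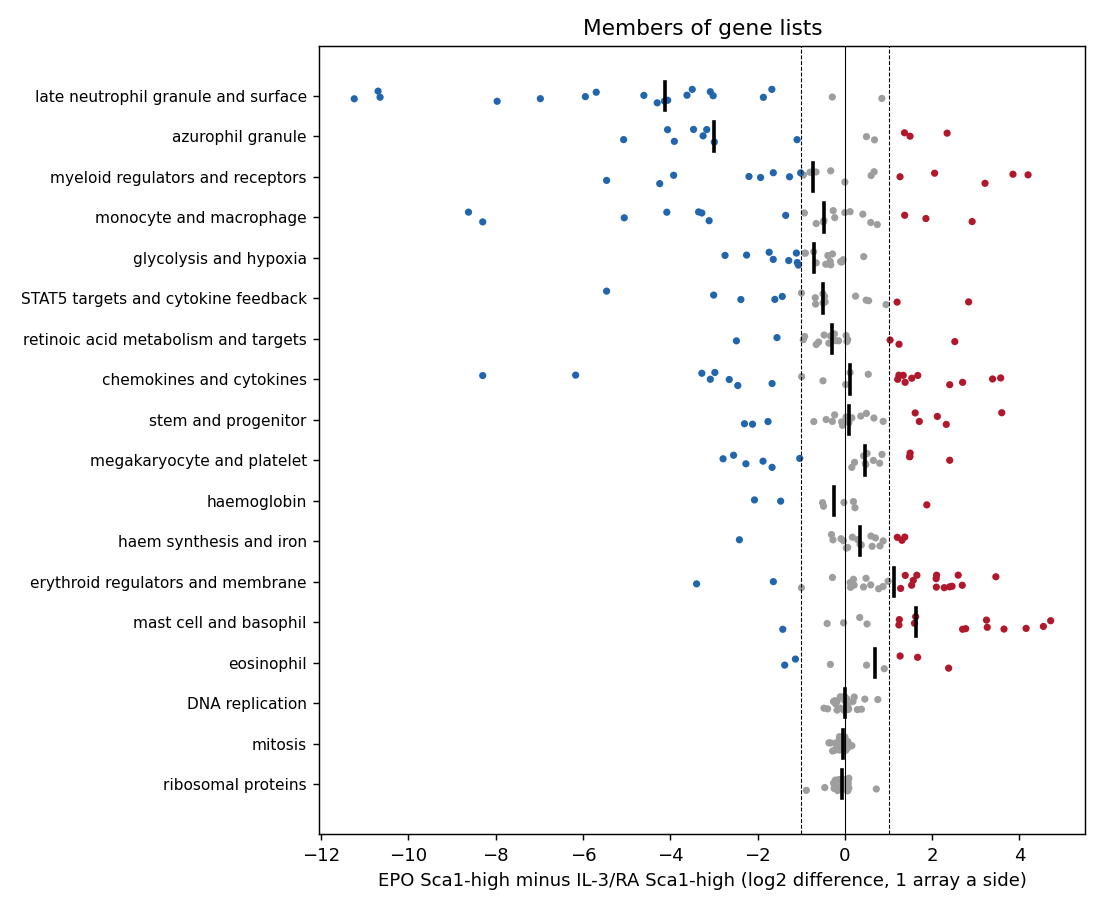
EPO Sca1-high minus IL-3/RA Sca1-high for the members of 18 of the lists, in log2, 1 point a gene above background, with the list's median as a black bar, red for genes at least 2-fold higher, blue for at least 2-fold lower and dashed lines at 2-fold. The median is -4.13 for late neutrophil genes and 1.62 for mast cell and basophil genes, and no replication, mitosis or ribosomal protein gene passes 2-fold.

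Mast cell and basophil genes were higher in EPO Sca1-high, 12 of 17 above background, with 1 lower and a median difference of 1.62. Mcpt2, a mast cell protease, had 7.62 in EPO Sca1-high and 2.90 in IL-3/RA Sca1-high, with 7.15 in untreated cells. Hdc, which makes histamine, had 4.66 and 0.11, with 3.30 in untreated cells. The proteases Mcpt4 (6.47 and 2.82) and Cma1 (4.84 and 1.58) and the IL-33 receptor Il1rl1 (4.93 and 3.31) had the same order. Cpa3, carboxypeptidase A3, was high on both arrays, with 8.37 in EPO Sca1-high and 7.12 in IL-3/RA Sca1-high. Ms4a2, the beta subunit of the IgE receptor, had -2.98 in EPO Sca1-high and was not well above background in IL-3/RA Sca1-high, a bounded difference of 3.11, while the alpha subunit Fcer1a had -3.17 in IL-3/RA Sca1-high and was not well above background after EPO. Gzmb, a granzyme, had 7.38 and 7.78, within 2-fold.

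For the proteases the untreated array lay nearer to EPO Sca1-high. Untreated cells had 6.40 for Mcpt4, 4.09 for Cma1 and 8.27 for Cpa3. Adora3, an adenosine receptor that mast cells use, and Slc6a4, the serotonin transporter, were not on the list but among the highest genes with both arrays above background: Adora3 had 3.87 and -0.69 and Slc6a4 had 3.00 and -1.40, with 3.51 and 3.14 in untreated cells. In bulk RNA, fewer cells of a type and less RNA per cell cannot be told apart, here and for every list. The GATA motif AGATAA is shown for its place in the promoters of 2 of these genes. They are Cpa3 at chr3:20242182-20242431 on the minus strand and Ms4a2 at chr19:11623720-11623969 on the minus strand. GATA2 acts on mast cell genes, but whether it acts at these sites was not tested.
Cpa3: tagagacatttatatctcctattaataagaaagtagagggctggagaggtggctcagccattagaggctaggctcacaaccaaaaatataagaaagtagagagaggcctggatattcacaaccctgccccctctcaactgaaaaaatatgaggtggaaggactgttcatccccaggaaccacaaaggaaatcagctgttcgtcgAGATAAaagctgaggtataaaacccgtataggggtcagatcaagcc
Ms4a2: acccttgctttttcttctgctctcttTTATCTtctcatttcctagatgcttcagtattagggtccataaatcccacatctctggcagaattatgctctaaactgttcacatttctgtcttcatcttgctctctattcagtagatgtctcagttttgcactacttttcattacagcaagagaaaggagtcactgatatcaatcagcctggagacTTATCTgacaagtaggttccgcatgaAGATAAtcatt
The capitals mark AGATAA or its reverse complement. AGATAA also stands, in lower case, in the S100a9, Stfa1 and Ltf promoters shown earlier. It stood in 5 of 15 mast cell and basophil promoters with a sequence and in 7 of 21 erythroid ones, but also in 6 of 18 late neutrophil ones. Its share was 12.5% for higher genes, 11.7% for lower genes and 8.56% for all promoters.

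Stem and progenitor genes had 5 higher and 3 lower of 21, with a median difference of 0.09. Kit, the stem cell factor receptor, had 5.50 in EPO Sca1-high and 3.18 in IL-3/RA Sca1-high, with 5.84 in untreated cells. Gata2, a stem and mast cell regulator, had 5.12 and 3.41, and Tal1, a partner of the GATA factors, had 6.16 and 4.55. Hlf, a stem cell transcription factor, had 1.77 and -1.83, with 1.52 in untreated cells. Meis1 and Mycn were on the other side, Meis1 with -1.73 in EPO Sca1-high and 0.57 in IL-3/RA Sca1-high, and Mycn with -0.64 and 1.47. Runx1, Fli1, Lmo2 and Myb were within 2-fold.

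Erythroid regulators and membrane genes were higher in EPO Sca1-high for 14 of 28, with 2 lower and a median difference of 1.13. Gata1, the main erythroid factor, had 4.92 in EPO Sca1-high and 3.27 in IL-3/RA Sca1-high, with 5.10 in untreated cells. Klf1, which turns on adult globin, had 2.61 and 0.21, with 1.75 in untreated cells. Car1, carbonic anhydrase 1, had 3.02 and -0.44, and Tspan33, a tetraspanin of erythroid cells, had 4.28 and 1.59. Their untreated levels were 2.71 and 4.18. Nfe2, an erythroid and megakaryocyte factor, was lower, with 5.02 in EPO Sca1-high and 6.66 in IL-3/RA Sca1-high. Both Sca1-low fractions were above both Sca1-high fractions for Gata1, Klf1, Car1 and Tspan33. Gata1 had 7.08 in EPO Sca1-low and 6.21 in IL-3/RA Sca1-low, and Klf1 had 6.08 and 5.05. Car1 had 6.91 and 4.65 and Tspan33 had 7.06 and 6.24 in the same order.

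Globins did not follow the erythroid regulators. Hba-a1 had 4.95 in EPO Sca1-high and 4.72 in IL-3/RA Sca1-high, and Hba-a2 had 6.76 and 6.57, both within 2-fold and both above the untreated levels of 1.19 and 3.48. Near-identical alpha globin copies can share signal between their probes. The embryonic beta-like genes parted: Hbb-bh1 had 1.53 in EPO Sca1-high and -0.34 in IL-3/RA Sca1-high, and Hbb-y had 5.21 and 7.28. The adult beta globin Hbb-bs was lower, with -0.01 in EPO Sca1-high and 1.46 in IL-3/RA Sca1-high. Hbb-b2, at 4.73 and 5.24, was within 2-fold. The haemoglobin list had 1 higher and 2 lower of 8. Of haem and iron genes, 3 were higher and 1 lower of 19. Alas2, the erythroid form of the first enzyme of haem synthesis, had -3.06 in EPO Sca1-high and -4.44 in IL-3/RA Sca1-high, and Alas1, the general form, had 2.55 and 4.96, although its 2 probes gave differences of -2.42 and -0.06.

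**Figure D3:**
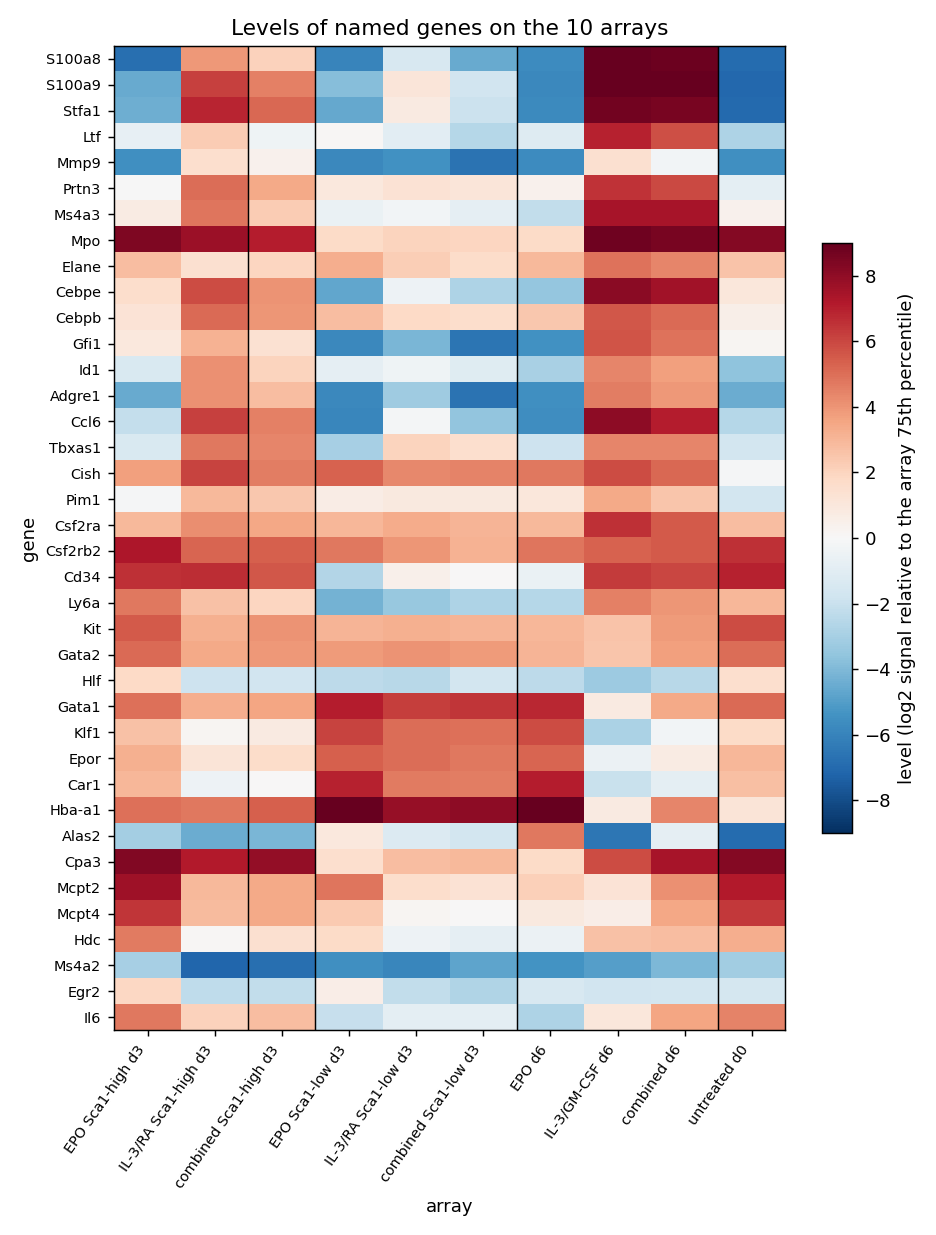
Level of named genes (rows) on the 10 arrays (columns), in log2 signal relative to the array's 75th percentile, red above and blue below 0. Vertical lines part the EPO and IL-3/RA Sca1-high arrays from the combined, Sca1-low, day 6 and untreated arrays; S100a9 is at -4.52 in EPO Sca1-high and 6.13 in IL-3/RA Sca1-high.

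Genes of cell division and protein synthesis did not part the fractions. None of 26 DNA replication genes, 26 mitosis genes or 30 ribosomal protein genes reached 2-fold, with median differences of 0.00, -0.04 and -0.06. The glycolysis and hypoxia list had 0 higher and 8 lower of 21, with a median of -0.71, and 20 of the 21 differences were negative. Hk3, the hexokinase of myeloid cells, had 0.79 in EPO Sca1-high and 3.54 in IL-3/RA Sca1-high, Slc2a3, a glucose transporter, had 2.13 and 4.38, and Bnip3, a hypoxia-induced mitophagy gene, had 4.16 and 5.80. Of the other lists, eosinophil genes had 3 higher and 2 lower of 8, megakaryocyte genes 4 and 6 of 19, B lymphoid genes 2 and 0 of 9, T and NK genes 0 and 3 of 11, dendritic cell genes 3 and 2 of 11, and interferon genes 2 and 5 of 13. CDK inhibitor genes had 3 and 1 of 14, stress response genes 2 and 1 of 16, p53 targets 0 and 1 of 12, sterol genes 0 and 4 of 23, and housekeeping genes 0 and 1 of 12. Over all compared genes 6.8% were higher and 8.97% lower, and the counts of these lists were not tested against those shares.

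A gene family outside the lists stood out among 450 families by symbol stem after its values were seen. Of 8 Gimap genes, GTPases best known from lymphocytes, 7 were lower in EPO Sca1-high, against 8.97% of all compared genes. Their median difference was -6.85 as measured and -5.98 with genes at their bound. For 5 of the 8 the dimmer side was not well above background. Gimap1 had -3.71 in EPO Sca1-high and 3.07 in IL-3/RA Sca1-high, and Gimap9 had -1.21 and 2.26. Gimap5 had 2.89 in IL-3/RA Sca1-high, with a bounded difference of -7.99. Gimap4 had -2.11 and -1.15 at its brightest probe, although its 3 probes gave differences between -7.00 and -0.96. In Sca1-low cells Gimap1 was at -5.24 after EPO and -1.93 after IL-3/RA. Gimap5 and Gimap8 were also lower after EPO in that pair. Gimap9 was within 2-fold there, and Gimap4 was higher after EPO, with -0.78 against -2.18. Gimap3, Gimap6 and Gimap7 were not well above background on either Sca1-low array. At day 6 Gimap7 was higher after EPO, Gimap4 was within 2-fold and the others were lower.

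The highest genes were of another kind than the lowest. By bounded difference the 12 highest included Olfr743, Dach2, Taar5, Vmn1r220, Rbbp9, Spata16, Arhgef28, Fam81a, Itgb6, Cyp2d34 and Nid2. Of the 12, 7 were well above background on the EPO Sca1-high array alone, 4 on 2 arrays and 1, Arhgef28, on more, and Arhgef28 was also the only one with a second probe above background. Olfr743, an odorant receptor gene, had 1.88 in EPO Sca1-high, with a bounded difference of 7.97 from IL-3/RA Sca1-high. Arhgef28, a guanine nucleotide exchange factor, had 0.64 in EPO Sca1-high and -4.76 in IL-3/RA Sca1-high, with 0.58 in untreated cells. Over all called genes, 117 of the higher ones were above background on the EPO Sca1-high array alone and 178 of the lower ones on the IL-3/RA Sca1-high array alone. The cause of these lone bright spots was not tested. Among genes above background on both arrays, a choice made after the values were seen, the highest after Arhgef28 included the secreted protein gene Crispld2 (0.82 and -4.34), the urokinase gene Plau (0.37 and -4.37), Mcpt2, Adora3, Hdc and Ly6d (0.62 and -3.79).

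The called genes were also set against untreated cells, which lay nearer to EPO Sca1-high for most of them. The median over the 958 higher genes was 0.43 for EPO Sca1-high minus untreated and -1.16 for IL-3/RA Sca1-high minus untreated. Over the 1264 lower genes the medians were 0.15 and 2.04. The untreated level was nearer to EPO Sca1-high for 609 higher genes (63.6%) and for 1136 lower genes (89.9%). Both ends of this measure are the arrays that chose the genes, and a gene bright on 1 of them alone has its direction fixed by that. With the genes above background on both Sca1-high arrays only, an alternative chosen after the values were seen, the untreated level was nearer to EPO Sca1-high for 512 of 677 higher genes (75.6%) and for 631 of 684 lower genes (92.3%), and without genes above background on 1 of the 10 arrays only for 603 of 841 (71.7%) and 969 of 1086 (89.2%). Over all genes, 987 (7.36%) were at least 2-fold apart from untreated in EPO Sca1-high and 2607 (18.5%) in IL-3/RA Sca1-high. These comparisons share the untreated array with each other and the Sca1-high arrays with the rule, and the untreated array lay on another slide, so slide and treatment cannot be told apart in them.

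**Figure D4:**
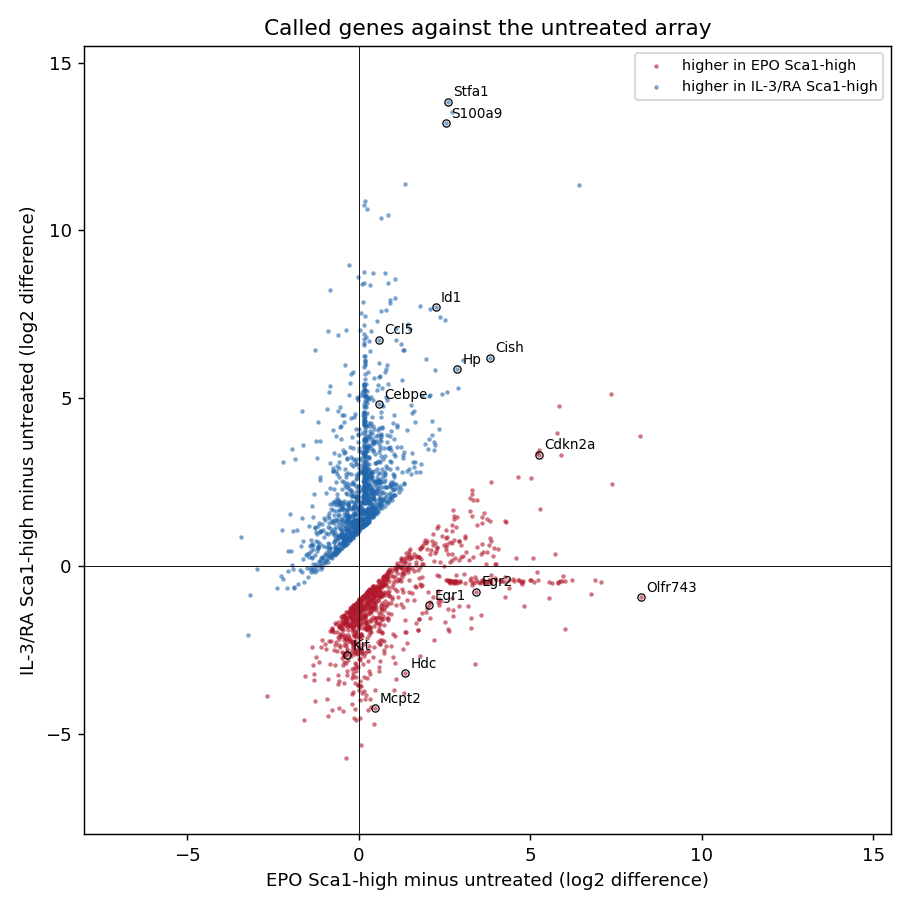
EPO Sca1-high minus untreated (horizontal axis) and IL-3/RA Sca1-high minus untreated (vertical axis) for the called genes, in log2, with red for higher and blue for lower in EPO Sca1-high. The blue genes spread along the vertical axis, with medians of 0.15 and 2.04, and the red genes have medians of 0.43 and -1.16.

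Cells kept in both sets of agents were nearer to IL-3/RA for most called genes. On a scale with 0 at IL-3/RA Sca1-high and 1 at EPO Sca1-high, the combined Sca1-high array had a median place of 0.10 over the higher genes (quartiles -0.10 and 0.37), and 788 of 958 (82.3%) were nearer to IL-3/RA. Over the lower genes its median place was 0.33 (quartiles 0.08 and 0.77), and 805 of 1258 (64.0%) were nearer to IL-3/RA. The ends of this scale are again the arrays that chose the genes. With the genes above background on both of them only, the median place was 0.12 over 677 higher genes, of which 563 (83.2%) were nearer to IL-3/RA, and 0.26 over 683 lower genes, of which 514 (75.3%) were nearer to IL-3/RA. Mcpt2 had 3.39 and Kit 4.07 on the combined array. S100a9 had 4.53 and Cebpe 4.04, between the EPO and IL-3/RA levels. The combined array lay on another slide than the arrays that set the scale.

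The Sca1-low pair and the day 6 pair share no array with the rule. The 75th percentile of signal was 305 for EPO Sca1-low and 639 for IL-3/RA Sca1-low, and both arrays were graded as ones to evaluate. In that pair 11 of 30 ribosomal protein genes were higher and 0 lower, with a median difference of 0.90. The Sca1-low pair was thus less evenly matched in signal than the Sca1-high pair. In the Sca1-low pair, EPO minus IL-3/RA, 12.7% of 13019 compared genes were at least 2-fold higher and 12.6% lower. Of 611 higher genes that could be compared there, 173 (28.3%) were higher again and 53 (8.67%) were lower. Of 722 lower genes, 267 (37.0%) were lower again and 67 (9.28%) were higher. At day 6, EPO minus IL-3/GM-CSF, 18.3% of 13023 genes were higher and 20.1% lower. Of 610 higher genes, 286 (46.9%) were higher again and 139 (22.8%) lower, and of 935 lower genes, 744 (79.6%) were lower again and 43 (4.60%) higher. Day 6 cells carry no Sca1 label, the IL-3 cells among them had GM-CSF as well, and the 2 day 6 arrays lay on different slides, so slide and treatment cannot be told apart in that pair, and the shares of the 2 directions were not tested against each other.

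Genes with 1 direction in all 3 pairs numbered 80 of the 958 higher (8.35%) and 218 of the 1264 lower (17.2%). These totals include genes that could not be compared in the other pairs. The share of all compared genes with 1 direction in both other pairs was not computed, so these counts have no background beside them. By bounded difference the foremost lower ones were Stfa1, Cstdc5, S100a9, Ccl6, Tbxas1 and Cebpe. Cebpe had -4.67 in EPO Sca1-low and -0.45 in IL-3/RA Sca1-low, and -3.45 in EPO and 8.13 in IL-3/GM-CSF cells of day 6. The foremost higher ones included Ly6d, Pdia2, Gng13, Tmem44 and Cited1. Ly6d, a lymphoid and Ly6 family surface gene, had 4.11 in EPO Sca1-low and 0.28 in IL-3/RA Sca1-low, and 3.37 in EPO cells of day 6. Pdia2, a protein disulfide isomerase, had 1.05 in EPO Sca1-high and -2.31 in IL-3/RA Sca1-high, and 6.60 in EPO Sca1-low and 3.87 in IL-3/RA Sca1-low.

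List medians took different sizes in the 3 pairs. Each is over the members well above background on at least 1 array of that pair, so the members can differ between pairs. Erythroid regulator genes had a median difference of 1.13 in Sca1-high, 0.43 in Sca1-low and 6.54 at day 6, against 0.01, 0.10 and 0.17 over all genes of those pairs. Late neutrophil genes had medians of -4.13, -0.37 and -8.34, over 19, 14 and 22 genes. Mast cell and basophil genes had 1.62, 0.66 and -0.49, with 2 of 14 higher and 6 lower at day 6. Glycolysis and hypoxia genes had -0.71, -0.12 and -1.38. The differences between the pairs were not tested.

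**Figure D5:**
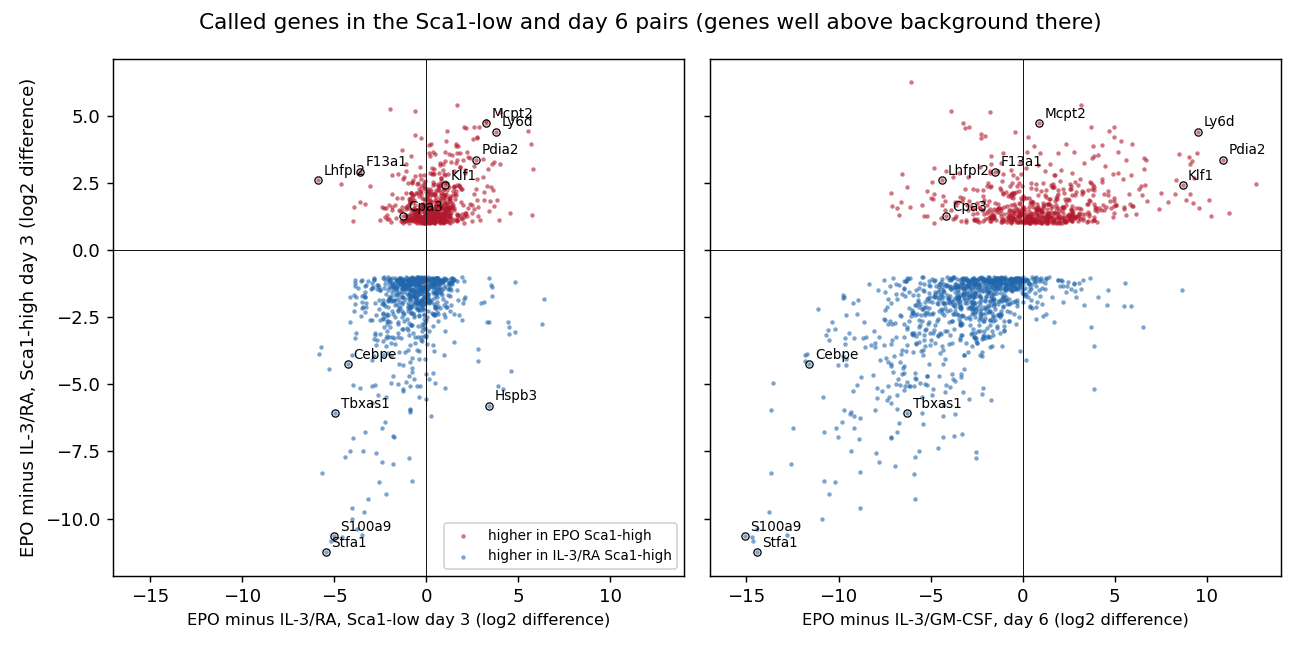
EPO Sca1-high minus IL-3/RA Sca1-high (vertical axis) for called genes against EPO minus IL-3/RA in Sca1-low cells (left) and EPO minus IL-3/GM-CSF at day 6 (right), in log2, showing genes well above background on at least 1 array of the horizontal pair. Of the blue genes, 267 of 722 are at least 2-fold lower in Sca1-low cells and 744 of 935 at day 6.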

How the data were processed

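RNA of EML-C1 cells was hybridised to 1-colour 60-mer arrays, 10 arrays in all, each labelled replicate 1. The series design mentions duplicates, but only these 10 arrays, 1 for each condition, were available here. Spot intensity was deposited as output of Agilent Feature Extraction 11.0.1.1, and the processed signal intensity was background-subtracted by that software per the file headers. Probes were averaged over repeat spots after spots flagged as outliers were left out, and 98.1% of probes with a RefSeq accession were matched to a symbol; the brightest probe stood for each of the 5476 genes with several. Each array's own 75th percentile was subtracted from its log2 processed signals. Genes well above background on at least 1 of the 2 arrays were compared, 14097 of 20660. The call threshold was 2-fold.

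With 1 array a side there is no test, no p-value and no estimate of spread between cultures, and the number of arrays limits the precision. The members and lists were chosen with earlier results of these data known. The naming rule took the 12 highest and 12 lowest genes by bounded difference without clone-type symbols, 4 members of each of 30 lists with the largest difference, 6 and 6 genes with 1 direction in all 3 pairs, 4 and 4 opposite in Sca1-low cells, and fixed markers; the genes above background on both arrays, the Gimap genes and other list members were added after their values were seen. Promoter motifs were searched on both strands in the 250 bases before RefSeq starts, with the windows of 1 chromosome left out. The code that makes the calls was run on simulated arrays with known differences set past the threshold. Both simulated arrays were made from the EPO Sca1-high array with spot error added and the same background flags. That run checks the code only and says nothing on the spread between cultures. Alternatives were median scaling, quantile normalization, normexp background correction with an offset of 50 on the median signal and median background (the mean signal was not used here) with quantile normalization, the deposited series matrix, the mean of probes, 2 other filters and a 4-fold threshold. R 4.3.3 with limma 3.58.1 and Python 3.11.15 were used. The array design was on mm9, and only RefSeq coordinates on GRCm38.p6 are printed. A few genes that the naming rule took are not reported here.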

Additional observations from a re-analysis of the deposited data

Results flagged for a closer look

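Genes with opposite differences of at least 2-fold in the Sca1-high and Sca1-low pairs are listed for a closer look; the differences between the pairs were not tested, and with 1 array a side an opposite sign rests on 4 arrays. The EPO Sca1-low array was dimmer than the IL-3/RA Sca1-low array, with a 75th percentile of signal of 305 against 639. Values are EPO minus IL-3/RA in log2 as measured, followed by the bound where a side was not well above background. F13a1, coagulation factor XIII, was 2.92 in Sca1-high and -3.59 in Sca1-low. Il5ra, the IL-5 receptor alpha chain, was 2.38 and -3.03 (bound -2.78). Alpk2, an alpha kinase, was 2.47 and -4.61 (bound -3.19), and Lhfpl2, a membrane protein, was 2.59 and -5.88 (bound -4.51). In the other direction, Akr1cl was -4.52 in Sca1-high (bound -2.92) and 4.59 in Sca1-low (bound 2.52), and Gdpd2, a glycerophosphodiesterase, was -5.17 (bound -4.24) and 4.20. Hspb3, a small heat shock protein, was -5.80 (bound -4.17) and 3.44 (bound 1.34), and Zp3r, a sperm protein, was -5.07 (bound -3.38) and 3.88 (bound 1.63). Akr1cl, Hspb3 and Zp3r were well above background on 2 of the 10 arrays, and Gdpd2 on 4. The list of myeloid regulators and receptors had a median of -0.73 over 20 genes in Sca1-high and 0.52 over 18 genes in Sca1-low.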

How the results depend on the processing

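No named gene or list median past the 2-fold threshold changed direction under any alternative run; 1 difference near 0, that of Csf3r, and 5 list medians near 0 (DNA replication, T and NK, dendritic cell, ribosomal protein and housekeeping genes) changed sign, none larger than 0.06 in size. Background correction by normexp with quantile normalization moved most counts: 522 genes were higher and 702 lower in EPO Sca1-high. Of the higher genes, 65 were higher again and 21 lower in Sca1-low cells, and 178 higher again and 66 lower at day 6. Of the lower genes, 150 were lower again and 20 higher in Sca1-low cells, and 11 were higher at day 6. An offset of 50 shrinks differences of dim genes by construction. With both arrays above background 677 genes were higher and 684 lower, and at 4-fold 382 were higher and 596 lower. With the bounded difference, an alternative chosen after seeing the data, 958 were higher and 1059 lower, and without genes bright on 1 array only, also chosen afterwards, 841 and 1086. Of values of named genes, 138 of 1220 moved by more than the spot error, as did 10 of 210 list medians. The share of called genes that were higher was 43.1%, and 49.7% with both arrays above background. No paired analysis was possible because all 10 arrays are labelled replicate 1 and each condition has 1 array. Dim genes are limited by signal over background: 861 of 2222 called genes have a bound for a difference.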
